A study of Mus musculus with 6 samples.

Results

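The genes described here are 10 members of the Bcl2 family, the proteins that decide whether the mitochondrial pathway of apoptosis runs: *Bcl2*, *Bcl2l1*, *Mcl1* and *Bcl2a1b*, which oppose death, *Bax* and *Bak1*, the effectors, and *Bcl2l11*, *Bbc3*, *Pmaip1* and *Bid*, the BH3-only genes. They were found by gene symbol, and 9 of the 10 had a value among the 12153 genes measured. *Bak1* had none, so its level was not analysed here. Expression was measured by RNA-Seq in 6 libraries of Tregs sorted from B16.F10 melanoma tumors 15 days after implantation. All mice carried the floxed allele of *Nr3c1*, the gene that encodes the glucocorticoid receptor (GR). The 3 control libraries came from mice labelled with that allele alone. The 3 *Nr3c1* Foxp3-Cre libraries came from mice that also carried Foxp3-YFP/Cre, in which the *Foxp3* promoter drives Cre, so that the floxed gene is deleted in Foxp3-expressing cells. The labels give a CD4+CD25+ sort and the study's methods a Foxp3-YFP+ sort, and a YFP allele is named for the *Nr3c1* Foxp3-Cre mice only, so genotype and a difference in sorting cannot be told apart. The study combined female and male mice, the ages were not given, and nothing read here says whether a library held 1 animal or several. The p-values therefore measure only the spread between these libraries, which may be technical.

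Bcl2 family proteins control the permeability of the outer mitochondrial membrane. BAX and BAK form pores that release cytochrome c, BCL2, BCL-XL, MCL1 and A1 hold them in check, and BH3-only proteins such as BIM and PUMA bind the protectors or activate the effectors when a cell is stressed or loses cytokine support. Glucocorticoids kill thymocytes and many lymphoid leukemia cells by this route, and induction of *Bcl2l11*, which encodes BIM, is a well-known step in it. Tregs depend on IL-2 and on MCL1 for survival. The comparison of control with GR-deficient tumor Tregs addressed whether these genes differ in level in vivo when the receptor is removed.

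The BH3 region that gives the BH3-only proteins their name is a short helix with a leucine and a following glycine-aspartate or alanine-aspartate pair, and it is present in the protectors and effectors too. The coding bases around it are shown for 6 members because this stretch occurs among BH3-only genes, effectors and protectors. In a BH3-only protein it is what lies against the binding groove of a protector. Each line is 48 bases of the GENCODE M21 transcript, 5′ to 3′ on the coding strand, with the 6 codons from that leucine to the aspartate in capitals.
Bcl2l11: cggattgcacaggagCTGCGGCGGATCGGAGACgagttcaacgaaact
Bbc3: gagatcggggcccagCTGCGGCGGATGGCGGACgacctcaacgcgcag
Bid: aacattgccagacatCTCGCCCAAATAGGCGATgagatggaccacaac
Bax: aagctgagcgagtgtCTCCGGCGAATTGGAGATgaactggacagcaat
Bcl2: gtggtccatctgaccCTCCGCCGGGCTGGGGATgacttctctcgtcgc
Mcl1: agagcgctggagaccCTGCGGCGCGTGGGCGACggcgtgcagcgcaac
In mm10 (GRCm38) these stretches are exonic and coding. That of *Bcl2l11* lies in exon 3 of 4 at chr2:128147135-128147182 on the plus strand, and that of *Bbc3* in exon 3 of 4 at chr7:16313758-16313805 on the plus strand. The *Bid* stretch is in exon 4 of 6 at chr6:120897283-120897330, minus strand, and the *Bax* stretch in exon 3 of 6 at chr7:45465991-45466038, minus strand. The *Bcl2* stretch is in exon 1 of 2 at chr1:106712569-106712616, minus strand, and the *Mcl1* stretch in exon 1 of 3 at chr3:95659421-95659468, plus strand. Read as codons, the capitals of *Bbc3* hold an alanine codon before the aspartate, and those of the other 5 hold a glycine codon. *Bcl2a1b* had no match to this arrangement of codons in its 1 coding transcript.

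The deposited values are log2 CPM, quantile normalized by the authors, without read counts, and the sequencing depth behind them is unknown. *Nr3c1* was lower in every *Nr3c1* Foxp3-Cre library than in every control library but was still detected, with a log2 fold change of -1.38 (limma adjusted p = 0.120). *Tsc22d3*, the glucocorticoid-induced gene that encodes GILZ, had a log2 fold change of -1.56 (limma adjusted p = 0.0342), where 0.0576% of all genes were called. It was the only call among the 8 genes measured of a list of 9, which holds *Nr3c1* and glucocorticoid response genes. That call was lost under 6 of 16 alternatives, with adjusted p from 0.0639 to 0.221: the replicate block, no variance trend, and leaving out control replicate 3 or any 1 of the 3 *Nr3c1* Foxp3-Cre libraries. *Foxp3* was at 3.91 ± 0.52 log2 CPM (SD, n = 3) in the controls and 3.96 ± 0.49 (SD, n = 3) in the other group, and all 7 Treg markers were present, with summed levels of 3147 to 4407 CPM and 3204 to 3818 CPM. All 7 melanocyte markers were present as well, and their summed level was higher than that of the Treg markers in 5 of the 6 libraries, from 3409 to 9134 CPM in the controls and 3802 to 9537 CPM in the *Nr3c1* Foxp3-Cre libraries. The 8 myeloid markers summed to 339 to 496 CPM and 252 to 486 CPM. All 8 had lower estimates in *Nr3c1* Foxp3-Cre Tregs, and 0 had an unadjusted limma p under 0.05, beside 3.26% of all genes. A value was present for 0 of 6 neutrophil markers. Of the 4 B cell markers only *Cd79b* had a value, at 14.08 to 23.37 CPM in the controls and 15.07 to 21.26 CPM in the *Nr3c1* Foxp3-Cre libraries. Of the 4 CD8 T and NK markers only *Cd8b1* had one, at 7.619 to 15.55 CPM and 10.16 to 12.75 CPM. RNA of B cells and CD8 T cells may thus be present at a low level in both groups. In the same unit *Foxp3* was also low, with geometric means of 15.0 CPM in the controls and 15.6 CPM in *Nr3c1* Foxp3-Cre Tregs. The geometric means of *Cd79b* were 17.1 and 17.6 CPM. In such bulk samples fewer cells of a type and less RNA per cell cannot be told apart.

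None of the 9 members differed between the groups at a limma adjusted p under 0.05, where 0.0576% of all genes did. At an unadjusted limma p under 0.05 the count was also 0 of 9, against 3.26% of all genes, and in 0 of 9 members did the libraries of the groups fail to overlap, against 7.41% of all genes. The estimate was higher in *Nr3c1* Foxp3-Cre Tregs for 4 members and lower for 5, with a median log2 fold change of -0.014 beside -0.0014 over all genes. Every member had an adjusted p of 1.0 by limma, and the smallest unadjusted p was 0.186. Counts of 0 among 9 genes are near these background shares and do not set the members apart from other genes.

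**Figure D1:**
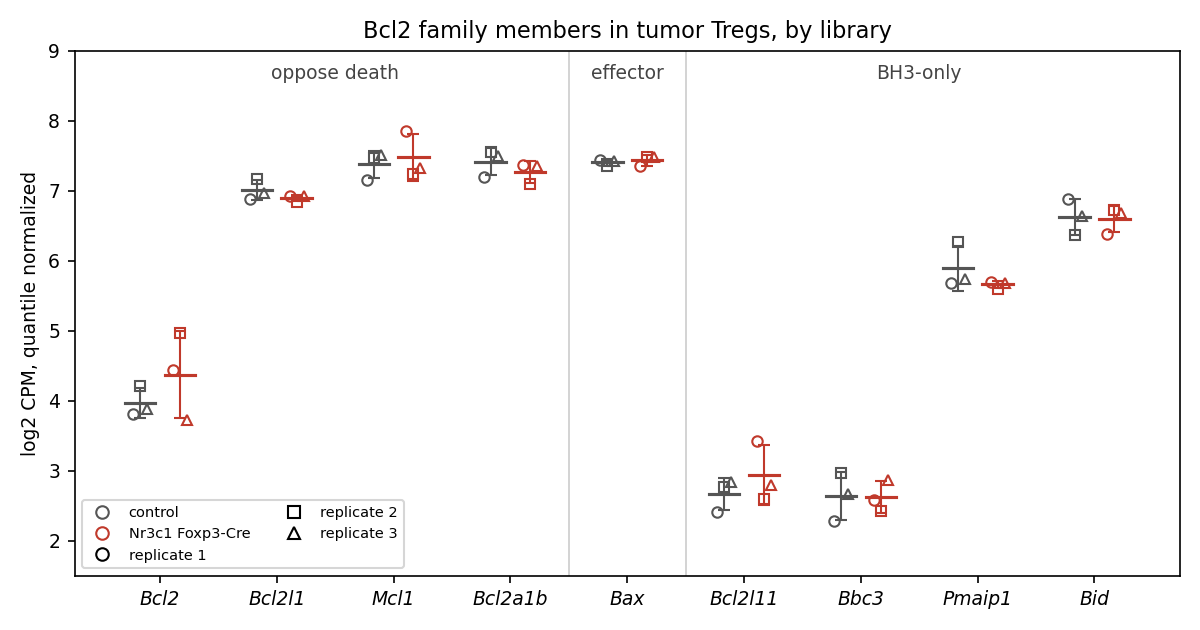
Level of each member in each library (y axis, log2 CPM, quantile normalized), with control libraries in grey and Nr3c1 Foxp3-Cre libraries in red, the symbol giving the replicate number, and bars for the mean and SD of 3 libraries. The groups overlap for all 9 genes, and Bcl2 and Bcl2l11 have the widest spread, from 3.72 to 4.96 and from 2.41 to 3.42.

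Among the genes that oppose death, *Bcl2* (ENSMUSG00000057329.7; mm10 chromosome 1, from 106538178 to 106714274, minus strand) encodes the founding member of the family. Control values were 3.81, 4.21 and 3.88 log2 CPM in replicates 1 to 3, and *Nr3c1* Foxp3-Cre values were 4.43, 4.96 and 3.72. Replicates 1 and 2 of the *Nr3c1* Foxp3-Cre group were above all controls and replicate 3 was below all of them. This gave a log2 fold change of 0.40 (SE 0.29, 95% interval -0.26 to 1.07, limma unadjusted p = 0.203, adjusted p = 1.0). A single library carried much of this estimate, which was 0.73 without *Nr3c1* Foxp3-Cre replicate 3 (limma unadjusted p = 0.0146, adjusted p = 1.0) and 0.11 without replicate 2 of that group.

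*Bcl2l1* (ENSMUSG00000007659.18; chromosome 2, from 152780668 to 152831728, minus strand) encodes BCL-XL, the protector that rises in activated T cells. Its level was 6.89, 7.17 and 6.96 log2 CPM in the controls and 6.93, 6.84 and 6.92 in *Nr3c1* Foxp3-Cre Tregs. The *Nr3c1* Foxp3-Cre libraries lay close together, inside or just below the range of the controls. A log2 fold change of -0.11 (SE 0.11, 95% interval -0.35 to 0.13, limma unadjusted p = 0.315) leaves folds from 0.785 to 1.09 inside the interval. Single controls moved it, to -0.031 when replicate 2 was left out and to -0.17 when replicate 1 was.

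*Mcl1* (ENSMUSG00000038612.16; chromosome 3, from 95658788 to 95663176, plus strand) encodes a short-lived protector on which Tregs depend. Control libraries held 7.16, 7.47 and 7.51 log2 CPM and *Nr3c1* Foxp3-Cre libraries 7.86, 7.24 and 7.33. Replicate 1 of the *Nr3c1* Foxp3-Cre group was the highest of all 6, and the other two fell among the controls. The estimate of 0.10 (SE 0.17, 95% interval -0.28 to 0.48, limma unadjusted p = 0.583) turned to -0.096 without that library.

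*Bcl2a1b* (ENSMUSG00000089929.1; chromosome 9, from 89199209 to 89207827, plus strand) encodes a copy of A1, an NF-κB-induced protector of lymphocytes and myeloid cells. Its controls held 7.20, 7.55 and 7.49 log2 CPM, beside 7.37, 7.09 and 7.36 in the *Nr3c1* Foxp3-Cre libraries. The lowest library was *Nr3c1* Foxp3-Cre replicate 2 and the highest was control replicate 2, with the other libraries mixed between them. Its log2 fold change of -0.14 (SE 0.13, 95% interval -0.43 to 0.14, limma unadjusted p = 0.281) has an interval that includes 0. It was -0.25 when control replicate 1 was left out, -0.075 when control replicate 2 was and -0.054 when *Nr3c1* Foxp3-Cre replicate 2 was.

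Mouse A1 is encoded by a cluster of near-identical genes, and the values of *Bcl2a1b* and its neighbor copy *Bcl2a1d*, which is not among the 10 members, rest on how reads that match both were divided. The first 100 coding bases of 3 copies, all in exon 1 of 2 on chromosome 9, are shown to make this visible, with capitals at every position where the 3 are not all alike.
Bcl2a1b: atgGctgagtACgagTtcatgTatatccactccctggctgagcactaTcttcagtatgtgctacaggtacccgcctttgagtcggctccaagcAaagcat
Bcl2a1d: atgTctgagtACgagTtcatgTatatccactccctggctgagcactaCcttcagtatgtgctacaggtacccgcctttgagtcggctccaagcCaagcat
Bcl2a1a: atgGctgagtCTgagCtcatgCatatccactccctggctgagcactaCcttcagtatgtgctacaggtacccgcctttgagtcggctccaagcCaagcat
They lie at chr9:89199360-89199459 (plus strand), chr9:88731620-88731719 (minus strand) and chr9:88957051-88957150 (plus strand) of mm10. Over the 516 coding bases, *Bcl2a1b* and *Bcl2a1d* differed at 6 positions, 3 of them in this stretch, which is an identity of 98.84%. Of all 50-base stretches of the *Bcl2a1b* transcript, 57.6% also occurred in a *Bcl2a1d* transcript, and 79.2% occurred in *Bcl2a1d*, *Bcl2a1a* or the overlapping gene model *Gm29094*, which shares 401 of the 817 exonic bases of *Bcl2a1b* on the same strand. *Bcl2a1a* had no value and was not analysed here.

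*Bcl2a1d* was at 7.0, 7.30 and 7.01 log2 CPM in the controls and 6.63, 6.37 and 6.86 in *Nr3c1* Foxp3-Cre Tregs. Every *Nr3c1* Foxp3-Cre library was below every control library. Its log2 fold change was -0.48 (SE 0.14, 95% interval -0.81 to -0.16, limma unadjusted p = 0.0081, adjusted p = 1.0), so it did not pass the test over all genes. The estimate ranged from -0.61 to -0.36 as each library was left out, and its adjusted p over all alternatives ran from 0.136, with the mean of the melanocyte markers as a covariate, to 1.0. A1 is also abundant in myeloid cells, and the myeloid markers had a median log2 fold change of -0.40. In *Nr3c1* Foxp3-Cre replicate 2, where *Bcl2a1d* was lowest, they summed to 486 CPM, the highest of that group, and their part in the level of *Bcl2a1d* was not tested. The log2 level of *Bcl2a1d* minus that of *Bcl2a1b* in the same library was -0.20, -0.25 and -0.49 in the controls and -0.74, -0.72 and -0.50 in *Nr3c1* Foxp3-Cre Tregs. These differences did not overlap between the groups, though control replicate 3 and *Nr3c1* Foxp3-Cre replicate 3 nearly met. The mean of the *Nr3c1* Foxp3-Cre group was 0.34 lower (exact two-sided permutation p = 0.1, the smallest that 3 libraries against 3 can give). Groups that do not overlap always give this p, so it adds nothing to the lack of overlap. When the CPM of both genes was summed, the log2 fold change was -0.29 (limma unadjusted p = 0.0473, adjusted p = 1.0). How reads were divided between the copies was not tested.

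**Figure D2:**
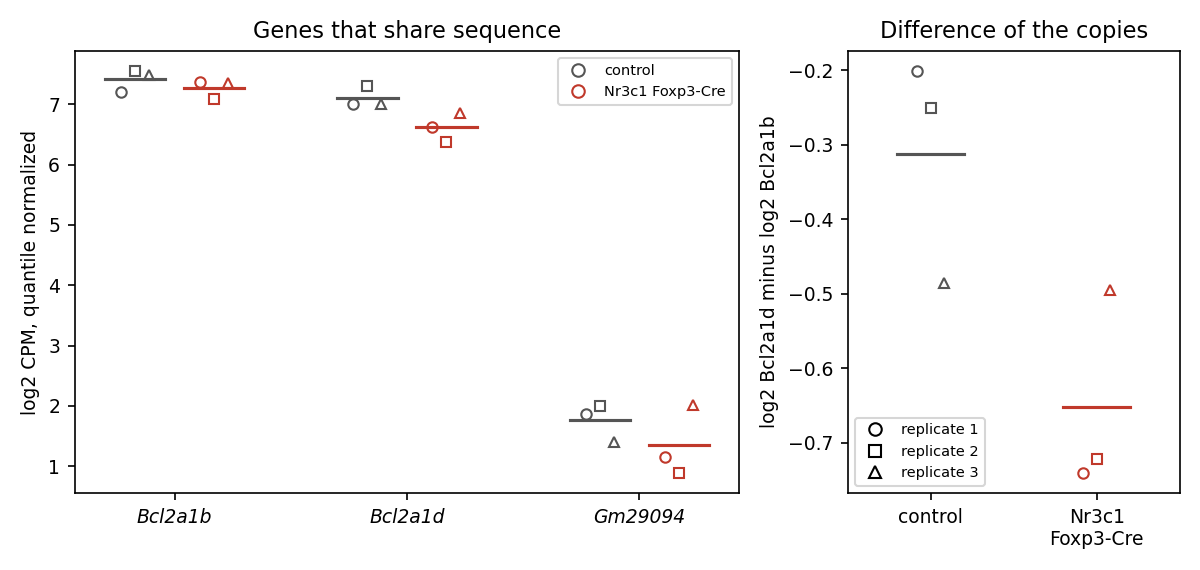
Left, level (log2 CPM, quantile normalized) of Bcl2a1b, Bcl2a1d and the overlapping Gm29094 in each control (grey) and Nr3c1 Foxp3-Cre (red) library, with the mean as a line. Right, log2 Bcl2a1d minus log2 Bcl2a1b in each library, which ran from -0.20 to -0.49 in the controls and from -0.50 to -0.74 in Nr3c1 Foxp3-Cre Tregs.

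Of the effectors, *Bax* (ENSMUSG00000003873.11; chromosome 7, from 45461697 to 45466898, minus strand) varied least of all members. Its level was 7.44, 7.35 and 7.43 log2 CPM in the controls and 7.35, 7.49 and 7.48 in *Nr3c1* Foxp3-Cre Tregs. All 6 libraries fell within a range of 0.14, and the groups overlapped. With a log2 fold change of 0.031 (SE 0.092, 95% interval -0.18 to 0.24, limma unadjusted p = 0.744), it had the narrowest interval of the 9, which spans folds from 0.885 to 1.18, and its estimate stayed between 0.0030 and 0.076 as each library was left out.

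*Bcl2l11* (ENSMUSG00000027381.16; chromosome 2, from 128126038 to 128162547, plus strand), the BH3-only gene most closely tied to glucocorticoid killing of lymphocytes, was at 2.41, 2.77 and 2.83 log2 CPM in the controls. In *Nr3c1* Foxp3-Cre Tregs it was at 3.42, 2.59 and 2.80. Replicate 1 stood above all other libraries, and replicates 2 and 3 lay inside the range of the controls. Its log2 fold change was 0.27 (SE 0.29, 95% interval -0.38 to 0.92, limma unadjusted p = 0.377), which corresponds to a fold of 1.20 with bounds at 0.767 and 1.89. Leaving out *Nr3c1* Foxp3-Cre replicate 1 gave 0.026, and leaving out replicate 2 gave 0.44. At a geometric mean of 6.36 CPM in the controls *Bcl2l11* was, with *Bbc3*, one of the least abundant members.

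*Bbc3* (ENSMUSG00000002083.13; chromosome 7, from 16308393 to 16318205, plus strand) encodes PUMA, a p53-induced BH3-only protein that is also used in glucocorticoid-induced death of thymocytes. Its values were 2.28, 2.97 and 2.66 log2 CPM in the controls and 2.58, 2.42 and 2.86 in *Nr3c1* Foxp3-Cre Tregs. The highest and the lowest libraries were both controls. An estimate of -0.014 (SE 0.28, 95% interval -0.64 to 0.61, limma unadjusted p = 0.962) turned positive when control replicate 2 was left out (0.15) or *Nr3c1* Foxp3-Cre replicate 1 or 2 (0.0056 and 0.087).

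*Pmaip1* (ENSMUSG00000024521.8; chromosome 18, from 66458533 to 66465565, plus strand) encodes NOXA, which binds MCL1 and promotes its turnover. Levels were 5.68, 6.26 and 5.73 log2 CPM in the controls and 5.69, 5.60 and 5.69 in *Nr3c1* Foxp3-Cre Tregs. Control replicate 2 alone stood apart, above the other 5 libraries. The estimate of -0.23 (SE 0.16, 95% interval -0.60 to 0.13, limma unadjusted p = 0.186), which has the smallest p of the members, was -0.045 without that control.

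*Bid* (ENSMUSG00000004446.12; chromosome 6, from 120891930 to 120916853, minus strand) encodes the BH3-only protein that caspase-8 cleaves to link death receptors to mitochondria. The controls gave 6.88, 6.36 and 6.64 log2 CPM and the *Nr3c1* Foxp3-Cre libraries 6.38, 6.73 and 6.68, so that the controls spanned the whole range of the other group. *Bid* had a log2 fold change of -0.032 (SE 0.15, 95% interval -0.37 to 0.31, limma unadjusted p = 0.839), which was 0.093 when control replicate 1 was left out and 0.077 when *Nr3c1* Foxp3-Cre replicate 1 was. *Bid* shares 628 of its 3550 exonic bases with *Bcl2l13* on the opposite strand, and since the sources used here do not say that strand was counted, reads there cannot be told apart.

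**Figure D3:**
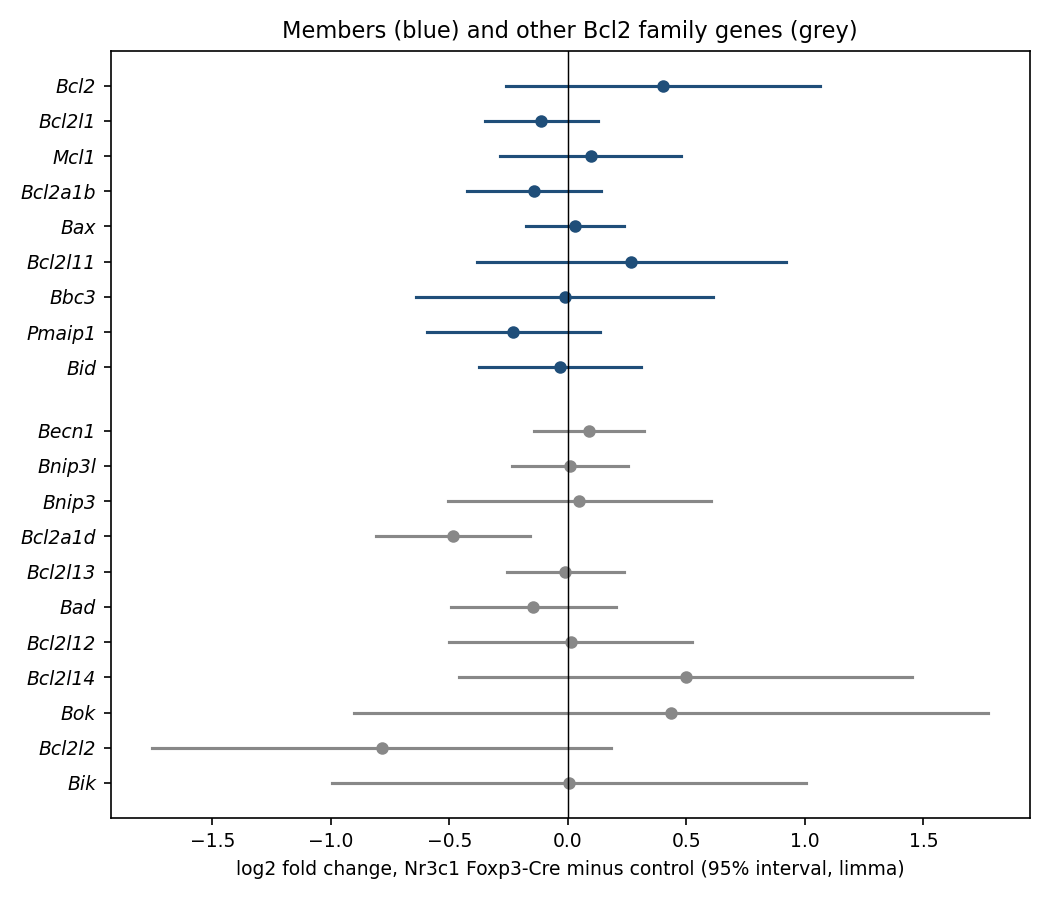
Log2 fold change (x axis, Nr3c1 Foxp3-Cre minus control) with its 95% interval from limma for the 9 members in blue and 11 other Bcl2 family genes in grey, the latter ordered by their highest library. The intervals of all 9 members include 0, and Bcl2a1d is the gene shown whose interval, -0.81 to -0.16, does not.

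The highest and the lowest values of the members were spread over libraries of both groups. Control replicate 2 was the highest library for 4 members and the lowest for 1, whereas control replicate 1 and *Nr3c1* Foxp3-Cre replicate 2 were each the lowest for 3. Control replicate 2 had the lowest summed melanocyte markers, 3409 CPM, and control replicate 1 and *Nr3c1* Foxp3-Cre replicate 2 had the highest, 9134 and 9537 CPM. *Nr3c1* Foxp3-Cre replicate 3, at 3802 CPM, was the highest for 0 members and the lowest for 1. With the mean of the melanocyte markers as a covariate, 0 of 9 members passed an adjusted or an unadjusted p of 0.05 by limma. Over all genes, 18 passed the adjusted and 665 the unadjusted threshold in the same fit. A count of 0 among 9 thus does not set the members apart from other genes. The part of melanoma RNA in the levels of the members was not tested. The median half-width of the members' 95% intervals was 0.36 on the log2 scale, beside 0.41 over all genes.

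Levels were divided by the length of each gene's longest annotated transcript, to allow for gene length. That transcript may not be the one expressed, which was not tested. Geometric means over the 6 libraries ran from 199 CPM per kilobase for *Bcl2a1b* and 156 for *Bax* to 1.39 for *Bcl2l11*. *Mcl1* (50.3 CPM per kilobase), *Bcl2l1* (48.2) and *Bid* (40.5) followed *Bax* and did not differ in order beyond their spread, since *Mcl1* was above *Bcl2l1* in 2 of 6 libraries and *Bcl2l1* above *Bid* in 5 of 6. *Pmaip1* was at 20.1 CPM per kilobase. *Bbc3* (3.41 CPM per kilobase) and *Bcl2* (2.50) were not separated either, with *Bbc3* higher in 5 of 6 libraries. A protector and an effector thus headed the order and a BH3-only gene ended it, in libraries that also held melanocyte and myeloid markers. With the median transcript length in place of the longest, *Bax* led at 254 CPM per kilobase, *Bid* rose to the third place at 174, and *Bcl2* and *Bcl2l11* were level at 3.59 and 3.57. The place of *Bcl2a1b* also depends on how reads were divided among the copies.

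Levels of a protector against a BH3-only gene were compared within each library for pairs chosen after the values were seen. Log2 *Bcl2* minus log2 *Bcl2l11* was 1.40, 1.44 and 1.05 in the controls and 1.01, 2.37 and 0.92 in *Nr3c1* Foxp3-Cre Tregs, and the groups overlapped. For *Mcl1* minus *Bcl2l11* the controls gave 4.75, 4.70 and 4.68 and the *Nr3c1* Foxp3-Cre libraries 4.44, 4.64 and 4.53. These did not overlap, with a difference of means of -0.17, and since the pair was picked with its values known no test is given. *Mcl1* minus *Pmaip1*, the pair whose proteins bind each other, was 1.48, 1.20 and 1.78 in the controls and 2.17, 1.64 and 1.64 in the other group, with overlap. All of these are differences of log2 CPM and carry the gene lengths with them.

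The patterns of *Bcl2l11* and *Bcl2* over the 6 libraries were set beside those of 5904 genes with a mean of at least 5 log2 CPM, by the root mean square difference of centred log2 values. Nearest to *Bcl2l11* were *Arid1b*, a subunit of a SWI/SNF chromatin remodeler (0.087), *Pik3cd*, the catalytic p110δ subunit of PI3K (0.089), and *Iqgap1*, a cytoskeletal scaffold (0.092), where the spread of *Bcl2l11* itself was 0.31. Nearest to *Bcl2* were *Acox3*, a peroxisomal oxidase (0.21), *Rab3gap2* (0.24) and *Kidins220* (0.24), with 0.43 for *Bcl2* itself. The likeness is a description over 6 libraries of both groups.

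Of 17 other Bcl2 family genes, 11 had a value, and 1 of them, *Bcl2a1d*, had an unadjusted limma p under 0.05 and groups that did not overlap, where 3.26% and 7.41% of all genes did. The median log2 fold change of the 11 was 0.0093. *Bcl2l2*, which encodes the protector BCL-W, was low, at 0.62, 1.07 and 1.18 log2 CPM in the controls and 0.22, 0.64 and -0.34 in *Nr3c1* Foxp3-Cre Tregs, and its estimate of -0.79 had an interval of -1.75 to 0.18. *Bok*, an effector relative of *Bax* and *Bak1*, was at or under 1.43 log2 CPM in every library, with an estimate of 0.44 (95% interval -0.90 to 1.77). The BH3-only genes *Bad* and *Bik* had estimates of -0.15 (95% interval -0.49 to 0.20) and 0.0035 (95% interval -1.0 to 1.0), and reads of *Bad* may be shared with *Gpr137* on the opposite strand. *Bcl2l14* had an estimate of 0.50 (95% interval -0.46 to 1.45), and *Bcl2l12* and *Bcl2l13* were at 0.011 (-0.50 to 0.52) and -0.010 (-0.26 to 0.24). *Bnip3* and *Bnip3l*, mitophagy receptors, stood at 0.049 (-0.51 to 0.60) and 0.0093 (-0.23 to 0.25), and *Becn1*, the BH3-containing autophagy protein Beclin-1, at 0.088 (-0.14 to 0.32). *Bmf*, *Hrk*, *Bcl2l10*, *Bcl2l15*, *Bcl2a1a* and *Bcl2a1c* had no value and were not analysed here.

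Downstream of the mitochondria, all 17 genes of a list of the apoptosome, the caspases and their inhibitors were measured, 9 with higher and 8 with lower estimates and a median log2 fold change of 0.014. By limma, 0 passed after adjustment, beside 0.0576% of all genes, and 1 passed at an unadjusted p under 0.05, beside 3.26%. That gene was *Xiap*, the inhibitor that binds caspase-9, caspase-3 and caspase-7, at 3.74, 3.50 and 3.48 log2 CPM in the controls and 2.92, 2.31 and 3.02 in *Nr3c1* Foxp3-Cre Tregs. All *Nr3c1* Foxp3-Cre libraries were below all controls. The log2 fold change of *Xiap* was -0.82 (SE 0.26, 95% interval -1.40 to -0.25, limma unadjusted p = 0.0101, adjusted p = 1.0). The groups did not overlap for 3 of the 17 genes (*Xiap*, and *Casp6* and *Dffa*, which are named here after their values were seen), beside 7.41% of all genes.

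The death receptor pathway, which reaches the mitochondria through *Bid*, was measured at 12 of 12 genes, 8 with higher and 4 with lower estimates. An unadjusted limma p under 0.05 was found for 0 of the 12, beside 3.26% of all genes. Groups without overlap were found for 0 of the 12, beside 7.41% of all genes. The gene with the smallest limma p was *Cflar*, which encodes the caspase-8 inhibitor c-FLIP, with a log2 fold change of 0.18 (95% interval -0.12 to 0.48, unadjusted p = 0.215, adjusted p = 1.0). Of 29 genes that regulate Bcl2 family genes or proteins, 28 were measured, 15 with higher and 13 with lower estimates and a median of 0.0034, and 0 had an unadjusted p under 0.05. The groups did not overlap for 1 of the 28, *Mapk8*, named after its value was seen, beside the 3.26% and 7.41% of all genes. *Mdm2*, the ubiquitin ligase that restrains p53, had the smallest limma p, with a log2 fold change of 0.21 (95% interval -0.044 to 0.47, unadjusted p = 0.0939, adjusted p = 1.0). *Foxo3*, a transcription factor that activates *Bcl2l11* and *Bbc3* and was named after its value was seen, had an estimate of -0.0075 (95% interval -0.66 to 0.65).

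Among the receptors and signal transducers through which IL-2, IL-7 and IL-15 sustain *Bcl2* and *Mcl1* in T cells, all 9 genes listed were measured, with a median log2 fold change of 0.061. *Il7r* alone had an unadjusted p under 0.05, 1 gene of 9 beside 3.26% of all genes. Control libraries held 6.78, 7.56 and 6.67 log2 CPM, beside 6.59, 5.57 and 6.15 in *Nr3c1* Foxp3-Cre Tregs. The groups did not overlap, as for 7.41% of all genes. Its log2 fold change was -0.90 (SE 0.28, 95% interval -1.54 to -0.27, limma unadjusted p = 0.0104, adjusted p = 1.0).

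**Figure D4:**
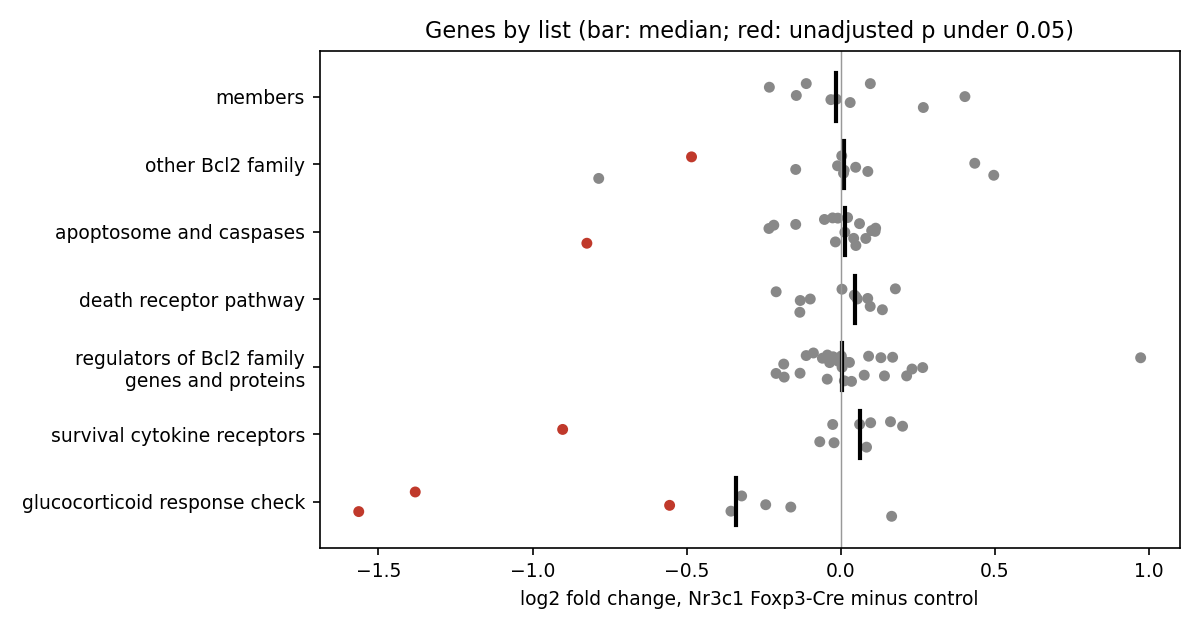
Log2 fold change (x axis, Nr3c1 Foxp3-Cre minus control) of each measured gene in 7 lists, one point per gene, with the median as a bar and genes with an unadjusted limma p under 0.05 in red. The members and the 5 other apoptosis and survival lists have medians from -0.014 to 0.061, and the glucocorticoid list, which includes the deleted gene Nr3c1, has a median of -0.34 with 3 red points (Tsc22d3, Nr3c1 and Dusp1).

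Of the 7 glucocorticoid response genes measured, leaving aside *Nr3c1*, which Cre deletes, 6 had lower estimates, with a median log2 fold change of -0.32. An unadjusted limma p under 0.05 was found for 2 of the 7, *Tsc22d3* and *Dusp1*, beside 3.26% of all genes. *Dusp1*, a MAP kinase phosphatase, had a log2 fold change of -0.56 (95% interval -0.85 to -0.26, limma adjusted p = 0.652). A log2 fold change as low as the -0.56 of *Dusp1* lies outside the 95% intervals of 7 members and inside those of *Bbc3* and *Pmaip1*. On the other side, the interval of *Bcl2* reached 1.07 and that of *Bcl2l11* 0.92.

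GR binds DNA at an inverted repeat of a half-site. The half-site AGAACA was searched on both strands in promoters of RefSeq genes on GRCm38.p6, 250 bases before to 50 bases after each start. It was found in 0 of the 14 promoters of 9 members, which here include *Bak1*, while 19.0% of all 32851 promoters held it. The full repeat, AGAACA and TGTTCT with any 3 bases between them, was found in 0 of 14 and in 0.00913% of all. *Pmaip1* had no entry. A window of 300 bases without these letters says nothing about binding elsewhere.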

How the data were processed

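Total RNA of sorted Tregs was amplified with the SMARTer Ultra Low Input kit, made into Nextera XT libraries and sequenced in paired-end mode. The authors used Cutadapt, STAR with mm10 and RSEM with GENCODE M21, removed genes of low CPM and quantile normalized the rest. What they deposited is log2 CPM for 12153 genes in 6 libraries, without the counts that voom weights need, so depth is unknown and intervals for counting error cannot be given.

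Genotype was tested in all 12153 genes by limma 3.58.1 under R 4.3.3 (lmFit, then eBayes using a trend of variance on mean), with no other term, Benjamini-Hochberg adjustment over all genes at 0.05 and no further filter or pseudocount. The fit was tested on simulated data, with changes larger than any estimate of the members, so that test says nothing about finding changes of their size. One difference of 3 libraries against 3 was compared with an exact permutation test. All 12153 identifiers matched GENCODE M21, from which positions, lengths and coding sequences came. Promoters came from RefSeq on GRCm38.p6. The members and the 13 lists of genes were chosen with earlier results of these data known. Named were all members and other Bcl2 family genes with a value, the genes of each further list with the 3 smallest unadjusted p under 0.05 or else the smallest p, and 3 genes most like *Bcl2l11* and *Bcl2*. Alternatives were eBayes without a trend, robust eBayes, sample quality weights, a minimum mean log2 CPM of 1, a pseudocount of 1 CPM, cyclic loess, median centering, a replicate block, other transcript lengths, summed copies and each library left out. The melanocyte covariate and the alternatives for *Bcl2a1d* and *Tsc22d3* were chosen after seeing the data.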

Additional observations from a re-analysis of the deposited data

How the results depend on the processing

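No member passed an adjusted p under 0.05 by limma under any alternative, and the smallest adjusted p of a member was 0.513. Of 151 single-gene values under alternatives, for 10 genes, 144 kept their direction and side of the threshold and 7 changed sign, all of estimates near 0. Robust eBayes, eBayes without a trend, the replicate block and the minimum level leave log2 fold changes unchanged by construction. Under those alternatives the direction was fixed in advance. Few genes passed the adjusted threshold in any fit, so the side of it could hardly change. The tally is therefore no measure of robustness. *Mcl1* was -0.096 without *Nr3c1* Foxp3-Cre replicate 1 and -0.013 without control replicate 1. *Bbc3* was 0.0056 and 0.087 without *Nr3c1* Foxp3-Cre replicates 1 and 2 and 0.15 without control replicate 2. *Bid* was 0.077 without *Nr3c1* Foxp3-Cre replicate 1 and 0.093 without control replicate 1. As each library was left out, *Mcl1* ran from -0.096 to 0.22, *Bbc3* from -0.19 to 0.15 and *Bid* from -0.16 to 0.093. The cause was not tested. With each library left out in turn, the number of members at an unadjusted limma p under 0.05 ran from 0 to 1. The 1 was *Bcl2* without *Nr3c1* Foxp3-Cre replicate 3, a fit in which 433 of the 12153 genes passed. The log2 fold change of *Bcl2l11* ran from 0.026 to 0.44. Same-numbered libraries deviated from their group means with correlations of -0.117, -0.329 and -0.0246, so no shared deviation was seen. Nothing read here says whether the numbers mark pairs, and these correlations cannot settle it. With a replicate block, 0 members and 0 of 12153 genes passed an adjusted p under 0.05, and 275 genes against 396 passed unadjusted. Over all genes the adjusted calls were 7, and they were 18 with the melanocyte covariate, 19 with sample quality weights, which put a weight of 7.47 on control replicate 3, 0 without a trend, and 0 to 8 with a library left out. The unadjusted calls were 396, and 665 with the covariate, 1376 with the weights and 703 without control replicate 2. The scalings moved the median of all genes by less than 0.1. Unknown depth and 3 libraries per group limit what could be detected.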
